A study of Mus musculus with 4 samples.

Results

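Solute carriers are membrane proteins that move sugars, amino acids, nucleosides, metals, ions and metabolites across the plasma membrane or the membranes of organelles, and their gene symbols begin with Slc and a family number. The genes described here are the 130 with that kind of symbol, a probe set assigned to 1 gene only, and a mean signal of at least 100 over 4 arrays, out of 262 such Slc genes measured and 12393 genes in all. Where a gene had several probe sets, the brightest was used. The members were thus selected on their measured signal, the mean over all groups, and that level is a description and no finding. The symbol rule also took in 3 genes that encode no transporter: the scaffold genes Slc9a3r1 and Slc9a3r2, whose proteins bind transporters and channels, and Slc4a1ap.

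The arrays came from mammary tumours of nulliparous female mice. The 4 groups were MMTV-PAX8PPARg mice given RU486, MMTV-PAX8PPARg mice given placebo, wild-type (WT) littermates given RU486 and WT littermates given placebo, all on the FVB strain. Every group, the placebo groups included, had received 15 mg of the progestin MP (Depo-Provera) and then 4 weekly gavage doses of 1 mg DMBA, a carcinogen. Pellets made for 60-day release, empty of drug or with 2.5 mg RU486 (mifepristone, which blocks the receptors of progesterone and glucocorticoids), were placed under the skin a day after DMBA dosing ended, and again 60 days later. The transgene joins PAX8, a transcription factor, to the nuclear receptor PPARg, and its promoter, from mouse mammary tumour virus, drives it in mammary epithelium. Each group is 1 Affymetrix array of RNA pooled in equal amounts from 5 mice, so the spread among mice or pools was not measured, nothing below has a test, and precision is limited by having 1 array per group. The labels call transgenic and WT mice age-matched and give no age.

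In the mammary gland, solute carriers are known for supplying the secretory epithelium: glucose for lactose, amino acids for milk protein, and phosphate, zinc and other ions for milk. In tumours, the facilitative glucose carrier GLUT1, the proton-coupled lactate carriers and the exchangers of glutamine and large neutral amino acids are known for feeding growth. Stromal cells have carriers of their own, such as the insulin-responsive glucose carrier of adipocytes and the phagosomal metal carrier of macrophages.

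Differences are of log2(signal + 16) after the median of each array was brought to a common value, and 1 unit is a 2-fold difference. They are given as RU486 minus placebo, or as PAX8PPARg minus WT. Signals are the deposited probe set signals, in arbitrary units, and are compared between arrays for the same gene only. Members passed the mean of 100 on different grounds: 103 read at least 100 on all 4 arrays, 19 on 3, 5 on 2 and 3 on 1. Those 3 were Slc37a2 and Slc29a1, which passed through the WT RU486 array, and Slc22a5, which passed through the PAX8PPARg placebo array, so the rule itself made them differ between arrays. The rule can favour a difference in other members too, where 1 array raised the mean. Slc1a3 and Slc2a4 read at least 100 on 2 arrays only. Both were highest on the PAX8PPARg placebo array (624 and 372), so the rule favoured a high value there. The genes closest inside the limit were Slc22a5, Slc37a2 and Slc29a1, with means of 100.4, 100.4 and 100.7, and those closest outside were Slc7a8, Slc25a45 and Slc66a1, with means of 99.3, 99.2 and 96.9. The median of the members' means was 367.8 and the highest 4875.

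The arrays were not equal in other respects. Their 2% trimmed mean signal was 500 on each, but the median was 188.4 on the PAX8PPARg placebo array against 163.0 to 170.3 on the others, a gap that the centring removed. The 18 probe sets for spiked-in control transcripts also differed. Their median ratio to the WT placebo array was 2.43 on PAX8PPARg RU486, 1.59 on WT RU486 and 1.00 on PAX8PPARg placebo. What this means for the RU486 differences was not tested. Gapdh probe sets at the 3′ end were brighter than those at the 5′ end by a ratio of 2.51 to 3.33, highest on the WT RU486 array. A higher ratio is a sign of lower RNA integrity. For Actb the ratio was 1.03 to 1.32, but lowest on the WT RU486 array and highest on the PAX8PPARg RU486 array. Gapdh and Actb thus did not rank the arrays alike. The 27 control probe sets for bacterial transcripts reached at most 35.3 on the PAX8PPARg RU486, 8.3 on the PAX8PPARg placebo, 18.5 on the WT RU486 and 9.6 on the WT placebo array. Signals no higher than that on the same array are described as within the background range, and a difference that rests on one is given as a bound. Only 3 members had such a signal: Slc1a3 on the PAX8PPARg RU486 array, and Slc5a9 and Slc6a15 on the WT RU486 array.

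Solute carrier genes were spread widely between the pools. The highest and the lowest array were at least 2-fold apart for 61 of the 130 members, against 34.5% of the 8021 genes that passed the same mean of 100, and the members' median ratio of highest to lowest was 1.87. They were at least 8-fold apart for 9 members, against 5.22% of all genes: Slc28a3, Slc1a3, Slc5a1, Slc16a3, Slc5a8, Slc44a3, Slc2a4, Slc5a9 and Slc6a15, of which Slc1a3, Slc5a9 and Slc6a15 have a lowest value within the background range. The WT RU486 array was the highest for 45 members and the WT placebo array for 43, where 32.7% and 28.0% of all genes had their highest value on those arrays. The PAX8PPARg placebo array was the highest for 24 members (16.1% of all genes) and the PAX8PPARg RU486 array for 18 (23.2%). The lowest array was the PAX8PPARg RU486 one for 36 members (27.1% of all genes), the PAX8PPARg placebo one for 44 (32.3%), the WT RU486 one for 36 (30.3%) and the WT placebo one for 14 (10.3%).

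For RU486 against placebo in PAX8PPARg tumours, 8 members (6.15%) were higher by 2-fold or more and 12 (9.23%) were lower by as much, where 6.1% and 6.89% of the 8021 genes were. Without centring of the arrays that split became 5 higher and 15 lower, and the genes no longer counted as higher, Slc12a4, Slc2a8 and Slc39a13, then differed by 0.93, 0.90 and 0.92. In WT tumours 14 members (10.8%) were higher under RU486 by 2-fold or more and 21 (16.2%) lower, where 6.87% and 10.1% of all genes were. The members' median was 0.00 in PAX8PPARg, against 0.05 over all genes, and -0.12 in WT, against -0.05. In PAX8PPARg 1 member was at least 8-fold higher (0.661% of all genes) and 1 at least 8-fold lower (0.761%). In WT 0 were 8-fold higher (0.199%) and 3 at least 8-fold lower (1.99%). The share of higher members in PAX8PPARg was thus close to that of all genes, while the share of lower members there and both shares in WT lay above it. These shares have no test.

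**Figure D1:**
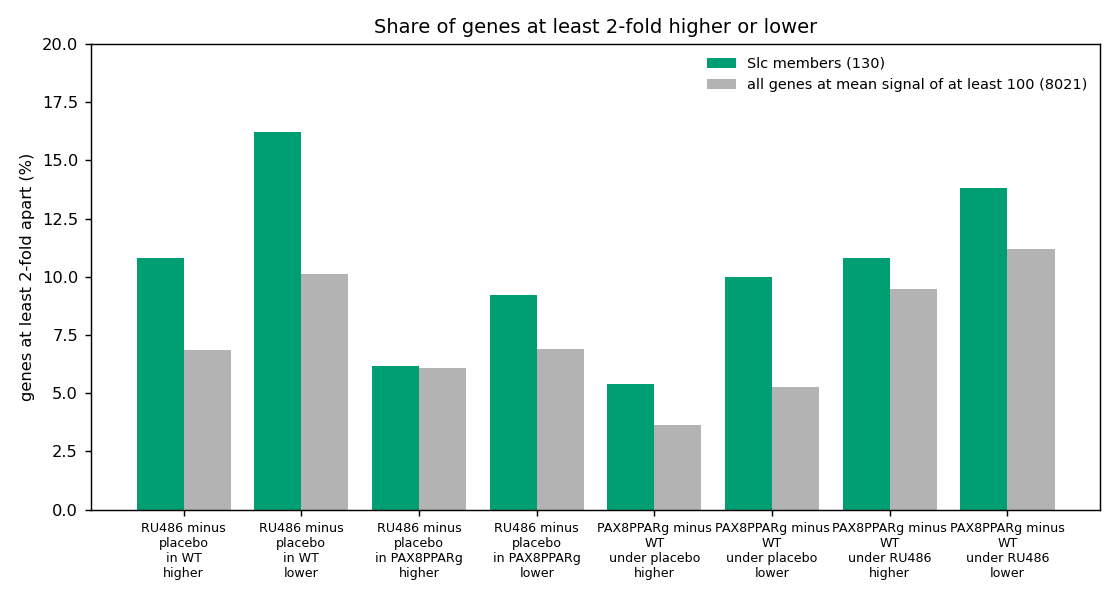
Percent of genes at least 2-fold higher or lower in each comparison (y axis), for the 130 Slc members (green) and the 8021 genes that passed the same mean signal (grey). Of the comparisons plotted, the widest gaps are for genes lower under RU486 in WT, 16.2% against 10.1%, and lower in PAX8PPARg under placebo, 10% against 5.25%.

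The members at the ends of the range were a nucleoside carrier, a glucose carrier, a lactate carrier and a glutamate carrier. Slc28a3, which encodes the concentrative nucleoside transporter CNT3, read 645 under RU486 and 541 under placebo in PAX8PPARg tumours, and 34.0 under RU486 and 2585 under placebo in WT tumours. The WT RU486 pool stood far below the other pools, with an RU486 difference of 0.38 in PAX8PPARg and -5.70 in WT. Its second probe set gave 0.49 in PAX8PPARg and -4.35 in WT. Slc5a1, the sodium-coupled glucose transporter SGLT1, had signals of 232 under RU486 and 291 under placebo in PAX8PPARg tumours, and 38.7 under RU486 and 1177 under placebo in WT tumours. It was again lowest in the WT RU486 pool, with differences of -0.17 in PAX8PPARg and -4.45 in WT, and 0.14 and -4.73 in the same order for its second probe set, which was within the background range in the WT RU486 pool.

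The largest differences in PAX8PPARg tumours belonged to other genes. Slc16a3, the lactate exporter MCT4, read 475 under RU486 and 40 under placebo in PAX8PPARg tumours, and 265 under RU486 and 279 under placebo in WT tumours. The PAX8PPARg placebo pool was the one that stood apart, with the other pools between 265 and 475, so the RU486 difference was 3.27 in PAX8PPARg and -0.07 in WT. Slc1a3, the glutamate and aspartate carrier GLAST, read 4.3 under RU486 and 624 under placebo in PAX8PPARg tumours, and 39.7 under RU486 and 154 under placebo in WT tumours. Its signal in the PAX8PPARg RU486 pool was within the background range, and against the top of that range the gene was at least 11.4-fold lower under RU486 in PAX8PPARg. In WT the difference was -1.60, and -0.96 for the next probe set. The third was within the background range in the WT RU486 pool as well. These other probe sets read 19.1 and 4.3 in the PAX8PPARg RU486 pool, against 412.5 and 197.7 in the PAX8PPARg placebo pool.

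The sequence before the transcription start of these 4 genes is shown because they are the members with the largest RU486 differences, the pair furthest down in WT and the members furthest up and furthest down in PAX8PPARg. The 250 bases upstream of the start are from RefSeq, build GRCm38.p6, and are printed 5′ to 3′ on the strand of the gene. Capitals mark matches, on either strand, to the STAT5 motif TTCNNNGAA, to TGTTCT, a hexamer that glucocorticoid and progesterone receptors bind, and to ACGTG, the core of the hypoxia response element. Overlapping matches are joined.
Slc28a3 (chr13:58610878-58611127, reverse strand): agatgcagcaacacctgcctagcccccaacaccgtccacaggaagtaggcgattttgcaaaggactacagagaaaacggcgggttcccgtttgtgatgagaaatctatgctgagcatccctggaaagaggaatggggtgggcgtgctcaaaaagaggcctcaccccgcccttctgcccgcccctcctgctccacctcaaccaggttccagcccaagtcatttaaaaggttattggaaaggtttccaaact
Slc5a1 (chr5:33103969-33104218, forward strand): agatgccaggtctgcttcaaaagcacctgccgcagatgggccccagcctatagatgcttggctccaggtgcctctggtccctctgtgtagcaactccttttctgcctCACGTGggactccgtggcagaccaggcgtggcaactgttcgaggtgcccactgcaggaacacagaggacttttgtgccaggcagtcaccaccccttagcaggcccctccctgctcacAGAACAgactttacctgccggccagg
Slc16a3 (chr11:120948817-120949066, forward strand): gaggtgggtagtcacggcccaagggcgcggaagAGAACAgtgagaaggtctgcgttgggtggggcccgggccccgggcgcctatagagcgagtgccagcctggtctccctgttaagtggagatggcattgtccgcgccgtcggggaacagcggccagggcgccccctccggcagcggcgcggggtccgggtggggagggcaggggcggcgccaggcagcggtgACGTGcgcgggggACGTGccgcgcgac
Slc1a3 (chr15:8710808-8711057, reverse strand): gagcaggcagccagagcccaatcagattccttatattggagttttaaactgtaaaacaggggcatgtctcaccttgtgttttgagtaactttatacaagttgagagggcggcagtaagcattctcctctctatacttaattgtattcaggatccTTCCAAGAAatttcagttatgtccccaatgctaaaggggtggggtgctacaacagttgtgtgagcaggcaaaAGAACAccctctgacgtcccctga
The Slc28a3 window held none of the 3 motifs, which says only that these letters are not in these 250 bases. The Slc5a1 window held ACGTG on both strands, overlapping as CACGTG 143 to 138 bases before the start, and a TGTTCT match on the reverse strand 26 to 21 bases before the start. Slc16a3 had 2 ACGTG matches, 27 to 23 and 14 to 10 bases before its start, and a reverse-strand TGTTCT match at 217 to 212, in a window of 73.6% G and C. Slc1a3 had a TTCNNNGAA match 96 to 88 bases before its start and a reverse-strand TGTTCT match at 24 to 19. RefSeq windows were found for 100 of the 130 members, 141 windows in all counting alternative starts. ACGTG was in 38 of these (27.0%), against 16.6% of all 32851 windows, TGTTCT in 14 (9.93%), against 16.1%, and TTCNNNGAA in 6 (4.26%), against 7.02%. All windows were taken without regard to signal, while the members had passed the mean of 100, so these sets are not alike. Among the 19 windows of members at least 2-fold lower under RU486 in WT, 4 held ACGTG, 3 TGTTCT and 1 TTCNNNGAA. Among the 9 windows of members at least 2-fold higher under RU486 in PAX8PPARg the counts were 3, 3 and 1. A match is a string of letters and not a shown binding site.

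Glucose and sugar carriers were the substrate group with the lowest median in WT among those with more than 3 members. Of the 20 on the array 13 were members. Under RU486 in PAX8PPARg, 2 of the 13 were higher by 2-fold or more and 1 lower, with a median of -0.04. In WT 1 was higher and 4 were lower, with a median of -0.90, against -0.05 over all genes. The 7 sugar carriers below the mean of 100 were Slc2a2, Slc2a5, Slc37a1, Slc45a2, Slc45a3, Slc5a4a and Slc5a4b.

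Besides Slc5a1, another sodium-coupled carrier and the urate carrier were low in the WT RU486 pool, while the kidney-type Slc5a2 was not. Slc5a9 (SGLT4), a sodium-coupled carrier of mannose and other sugars, had signals of 212 (PAX8PPARg RU486), 111 (PAX8PPARg placebo), 10 (WT RU486) and 143 (WT placebo). The WT RU486 signal was within the background range, so the gene was at least 4.61-fold lower under RU486 in WT. In PAX8PPARg the difference was 0.98. Slc2a9 (GLUT9), a urate carrier of the glucose transporter family, read 1652 (PAX8PPARg RU486), 1029.9 (PAX8PPARg placebo), 219.9 (WT RU486) and 1408 (WT placebo), with differences of 0.81 in PAX8PPARg and -2.59 in WT. Slc5a2 (SGLT2), the main sodium-coupled glucose carrier of kidney tubules, lay between 278 and 387 on all arrays, with differences of -0.32 in PAX8PPARg and 0.05 in WT.

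Among the facilitative glucose carriers, Slc2a1 (GLUT1), which carries basal glucose uptake in most cells and is the main glucose carrier of the mammary gland, was among the 5 members with the highest mean signal. It read 5872 under RU486 and 2376 under placebo in PAX8PPARg tumours, and 2929 under RU486 and 5298 under placebo in WT tumours. RU486 minus placebo was 1.43 in PAX8PPARg and -0.85 in WT, and its other probe sets gave 1.75 and 1.58 in PAX8PPARg and -0.72 and -1.03 in WT. The PAX8PPARg RU486 and WT placebo pools were thus close to each other and the other pools lay below them. Slc2a4 (GLUT4), the insulin-responsive carrier of fat and muscle, read 125 (PAX8PPARg RU486), 372 (PAX8PPARg placebo), 21.4 (WT RU486) and 58.1 (WT placebo). It was highest in the PAX8PPARg placebo pool, with differences of -1.33 for RU486 in PAX8PPARg, -0.99 for RU486 in WT, and 2.20 for PAX8PPARg under placebo. Its dimmer second probe set, with a mean of 69.1, gave -0.73, -0.84 and 1.24 in the same order. That probe set was within the background range in the WT RU486 pool. The adipocyte markers were also highest in that pool: the summed signal of the 6 measured of 8 listed was 3489 in the PAX8PPARg RU486, 21900.2 in the PAX8PPARg placebo, 3653 in the WT RU486 and 9079 in the WT placebo pool. Their part in the values of Slc2a4 was not tested, and in bulk tissue fewer cells of a type and less RNA per cell cannot be told apart.

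Other sugar carriers had smaller differences. Slc2a3 (GLUT3), a high-affinity glucose carrier, differed by -0.51 in PAX8PPARg and -1.09 in WT. Its next brightest probe set gave -0.81 in PAX8PPARg and -1.08 in WT, but the WT value was -0.44 when its probe sets were averaged, dim ones included. Slc2a8, an intracellular member, was higher under RU486 in PAX8PPARg (149 under RU486 and 72.6 under placebo, a difference of 1.03), and differed by -0.19 in WT. Slc37a2, a sugar phosphate exchanger, read 80.0 under RU486 and 61.7 under placebo in PAX8PPARg and 194 under RU486 and 66.2 under placebo in WT. It was the 1 sugar carrier that was higher under RU486 in WT by 2-fold. The gene passed the mean of 100 through the WT RU486 array alone, so the rule itself favoured that difference. The remaining members, Slc2a10, Slc37a3, Slc37a4 (the glucose 6-phosphate carrier of the endoplasmic reticulum) and Slc50a1, stayed within 2-fold between RU486 and placebo in both genotypes.

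**Figure D2:**
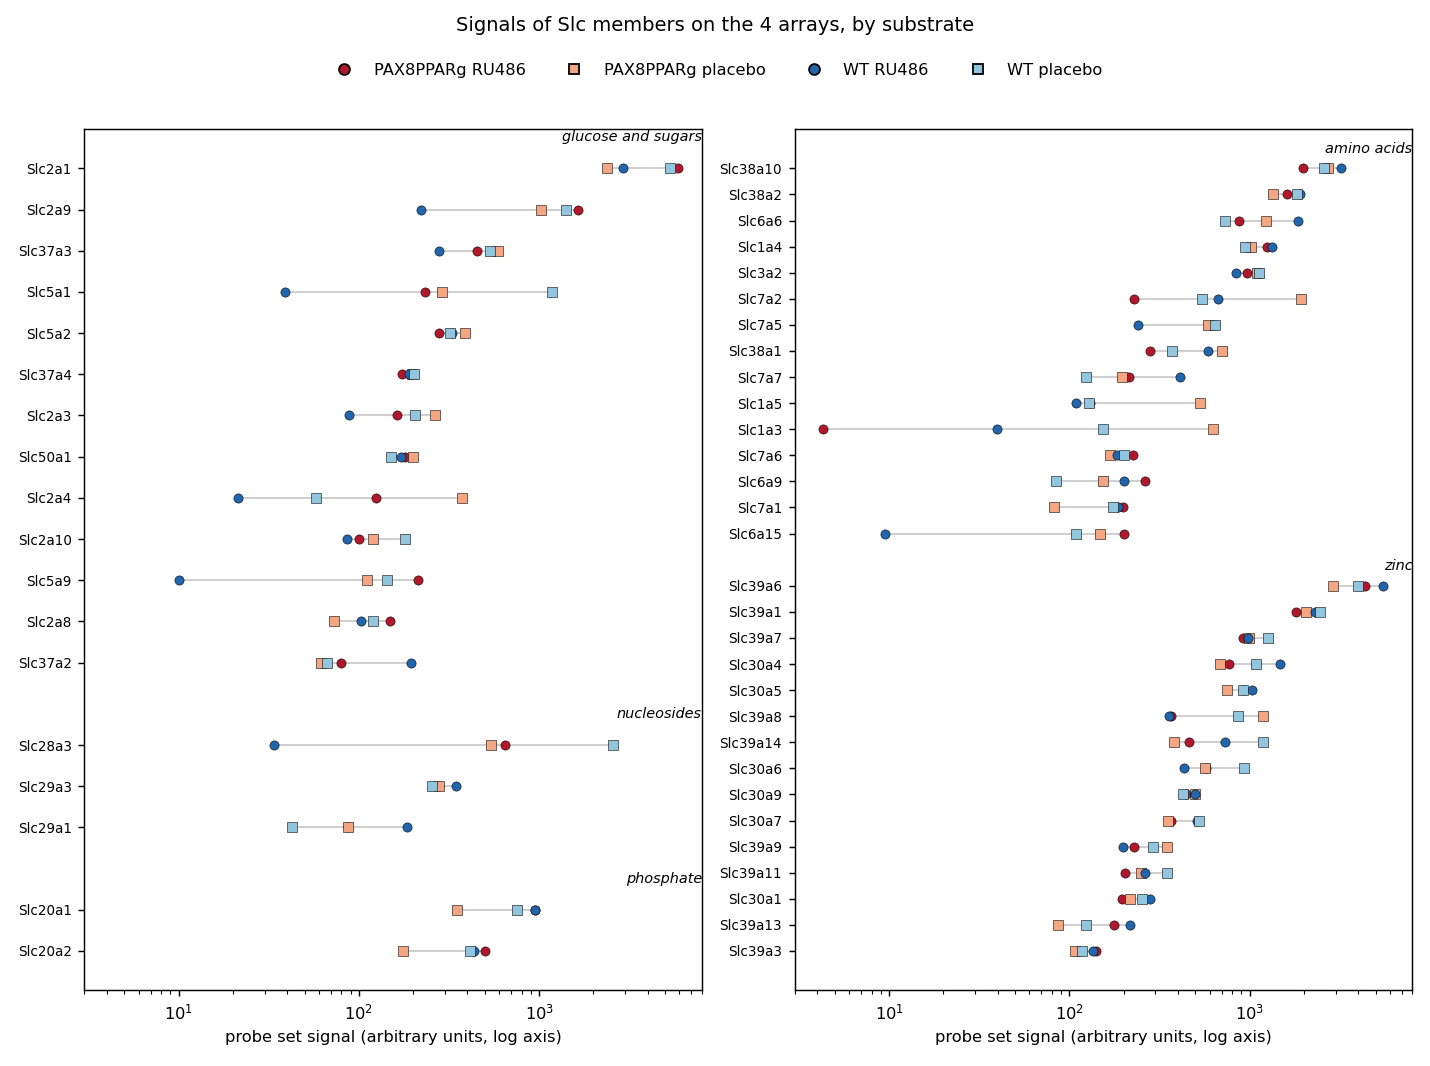
Signals of the members that carry sugars, nucleosides, phosphate, amino acids and zinc (x axis, log scale), 1 row per gene and 1 point per array. Low outlying points of the WT RU486 array are seen for Slc28a3, Slc5a1, Slc5a9, Slc2a9 and Slc6a15, and the PAX8PPARg placebo point lies below the rest for Slc20a1 and Slc20a2, where the RU486 points of both genotypes nearly coincide.

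Monocarboxylate carriers, which move lactate, pyruvate and ketone bodies, had opposite patterns within the family. Slc16a1 (MCT1), the widespread lactate and pyruvate carrier, read 1126 (PAX8PPARg RU486), 665 (PAX8PPARg placebo), 965 (WT RU486) and 1252 (WT placebo), with RU486 differences of 0.88 in PAX8PPARg and -0.37 in WT. Like the MCT4 gene Slc16a3 it was lowest in the PAX8PPARg placebo pool. Slc16a7 (MCT2), a high-affinity pyruvate and lactate carrier, read 63.2 (PAX8PPARg RU486), 236 (PAX8PPARg placebo), 255 (WT RU486) and 64.3 (WT placebo). It was the only member at least 2-fold apart in opposite directions in the genotypes, lower under RU486 in PAX8PPARg (-1.54) and higher in WT (1.75). Over all genes 3.25% had such a pattern.

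The remaining carboxylate carriers passed 2-fold in WT and not in PAX8PPARg, a contrast that has no test. Slc5a8, a sodium-coupled carrier of lactate and short-chain fatty acids, read 298 (PAX8PPARg RU486), 447 (PAX8PPARg placebo), 27.8 (WT RU486) and 266 (WT placebo), and its RU486 difference was -0.43 in PAX8PPARg and -2.69 in WT. Slc13a3, a sodium-coupled carrier of dicarboxylates, differed by 0.25 in PAX8PPARg and was higher under RU486 in WT (314 under RU486 and 113 under placebo). With its probe sets averaged, dim ones included, the WT value was 0.83 in place of 1.35. Slc16a6, another member of the MCT family, differed by -0.13 in PAX8PPARg and was also higher under RU486 in WT (1.40).

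Amino acid carriers were a mixed group. Of 38 on the array 15 were members, and in PAX8PPARg 1 was higher under RU486 by 2-fold or more and 4 were lower, with a median of 0.25, against 0.05 over all genes. In WT 3 were higher and 3 were lower, with a median of 0.08. The 4 genes lower in PAX8PPARg all had their highest signal in the PAX8PPARg placebo pool.

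They were carriers of acidic, cationic and small neutral amino acids. Beside Slc1a3, described above, Slc7a2 (CAT2), which carries arginine, lysine and ornithine, read 228 (PAX8PPARg RU486), 1917 (PAX8PPARg placebo), 670.1 (WT RU486) and 546 (WT placebo). Its RU486 difference was -2.85 in PAX8PPARg and 0.29 in WT, and -2.28 and -1.32 for its other probe sets in PAX8PPARg. Slc1a5 (ASCT2), a carrier of glutamine and other neutral amino acids, read 130.1 (PAX8PPARg RU486), 531 (PAX8PPARg placebo), 108 (WT RU486) and 129 (WT placebo), so that 3 pools lay close together and the PAX8PPARg placebo pool stood above them. Slc38a1, a sodium-coupled carrier of glutamine, read 282 (PAX8PPARg RU486), 707 (PAX8PPARg placebo), 585 (WT RU486) and 369 (WT placebo), with differences of -1.15 in PAX8PPARg and 0.64 in WT.

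The cationic amino acid carrier Slc7a1 (CAT1) ran the other way from Slc7a2. It read 199 (PAX8PPARg RU486), 82.6 (PAX8PPARg placebo), 186 (WT RU486) and 175 (WT placebo), with RU486 differences of 1.26 in PAX8PPARg and 0.08 in WT. The PAX8PPARg placebo pool was thus the highest of the 4 for Slc7a2 and the lowest for Slc7a1.

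In WT, members lower under RU486 were Slc6a15, Slc1a3 and Slc7a5. Slc6a15, a sodium-coupled carrier of branched-chain amino acids and proline known from the brain, read 202 (PAX8PPARg RU486), 148 (PAX8PPARg placebo), 9.5 (WT RU486) and 108 (WT placebo). The WT RU486 value was within the background range, so the gene was at least 3.60-fold lower under RU486 in WT. Slc7a5 (LAT1), the exchanger of large neutral amino acids, read 642 (PAX8PPARg RU486), 585 (PAX8PPARg placebo), 239.9 (WT RU486) and 642 (WT placebo), with differences of 0.26 in PAX8PPARg and -1.36 in WT. Its heavy chain partner Slc3a2 (CD98) differed less, by -0.05 in PAX8PPARg and -0.41 in WT.

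Members higher under RU486 in WT were Slc7a7, Slc6a6 and Slc6a9. Slc7a7, the light chain of an exchanger of cationic and neutral amino acids that is known from gut, kidney and macrophages, read 214 under RU486 and 196 under placebo in PAX8PPARg and 412 under RU486 and 124 under placebo in WT. Slc6a6, the taurine transporter, read 870.2 under RU486 and 1234 under placebo in PAX8PPARg and 1844 under RU486 and 733 under placebo in WT, and its other probe sets gave 1.54 and 1.57 in WT, beside 1.31 for the brightest. Slc6a9, the glycine transporter GlyT1, differed by 0.84 in PAX8PPARg and 1.11 in WT, and by 0.87 in WT when its dim second probe set was averaged in. The neutral amino acid carriers Slc1a4, Slc38a2 and Slc38a10 and the cationic amino acid exchanger Slc7a6 stayed within 2-fold between RU486 and placebo in both genotypes.

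Nucleoside carriers had 3 members of 5 on the array, and these did not share a pattern. Concentrative CNT3 (Slc28a3) was far lower under RU486 in WT, as given above. Slc29a1 (ENT1), the main equilibrative nucleoside carrier of the plasma membrane, was higher there, at 186 under RU486 and 42.8 under placebo, a difference of 1.78. It passed the mean of 100 through the WT RU486 array alone, so the rule itself favoured a high value there. In PAX8PPARg it read 87.2 under RU486 and 86.7 under placebo. Slc29a3 (ENT3), the nucleoside carrier of lysosomes, lay between 254 and 345 over the 4 arrays.

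Few zinc carriers differed by 2-fold between RU486 and placebo. ZIP proteins, encoded by Slc39 genes, bring zinc into the cytosol, and ZnT proteins, encoded by Slc30 genes, take it out of the cytosol into organelles or out of the cell. Of 18 on the array 15 were members. In PAX8PPARg 1 was higher under RU486 by 2-fold or more and 1 lower, with a median of 0.16, and in WT 0 were higher and 2 lower, with a median of -0.04.

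Slc39a8 (ZIP8), an importer of zinc, manganese and iron, was lower under RU486 in both genotypes, with signals of 365 (PAX8PPARg RU486), 1187 (PAX8PPARg placebo), 357 (WT RU486) and 867 (WT placebo). The differences were -1.53 in PAX8PPARg and -1.24 in WT, and -1.66 and -1.17 for its dim second probe set (within the background range in the PAX8PPARg RU486 pool), so that both RU486 pools lay below both placebo pools. Slc30a6 (ZnT6), a carrier of the Golgi, differed by 0.16 in PAX8PPARg and was lower under RU486 in WT (429.8 under RU486 and 927 under placebo). Slc39a13 (ZIP13), of the early secretory pathway, differed by 1.06 in PAX8PPARg and 0.75 in WT.

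By genotype the zinc group leaned 1 way under placebo, with a median of -0.54 for PAX8PPARg minus WT, against -0.15 over all genes. Only Slc39a14 (ZIP14), a zinc and iron importer known for its rise in inflammation, was at least 2-fold lower, at 382 in the PAX8PPARg placebo and 1189.9 in the WT placebo pool. Slc39a6 (LIV-1), known in breast cancer as an estrogen-regulated gene, was among the 5 members with the highest mean signal and read 4349.8 (PAX8PPARg RU486), 2898 (PAX8PPARg placebo), 5462 (WT RU486) and 3995 (WT placebo). Slc30a4 (ZnT4), whose loss in mice gives zinc-poor milk, read 771 (PAX8PPARg RU486), 686 (PAX8PPARg placebo), 1473 (WT RU486) and 1089 (WT placebo). Both were highest in the WT RU486 pool, the one with the lowest epithelial markers, by less than 2-fold over WT placebo.

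Phosphate carriers had 2 members, the sodium-coupled phosphate carriers PiT-1 and PiT-2 that most tissues use, and their brightest probe sets had the same pattern. Slc20a1 (PiT-1) read 947 (PAX8PPARg RU486), 349 (PAX8PPARg placebo), 948 (WT RU486) and 757 (WT placebo). Slc20a2 (PiT-2) read 499.6 (PAX8PPARg RU486), 175 (PAX8PPARg placebo), 437 (WT RU486) and 414 (WT placebo). In both cases the PAX8PPARg placebo pool was the lowest and the other pools lay close together, with RU486 differences of 1.53 and 1.57 in PAX8PPARg and 0.32 and 0.07 in WT. The second probe sets were also lowest in the PAX8PPARg placebo pool, but differed more between RU486 and placebo in WT. That of Slc20a1, with signals of 68.4 (PAX8PPARg RU486), 27.3 (PAX8PPARg placebo), 163 (WT RU486) and 56.1 (WT placebo), gave 1.10 in PAX8PPARg and 1.31 in WT, and that of Slc20a2 gave 0.62 in PAX8PPARg and 0.47 in WT. Averaged over probe sets, PAX8PPARg minus WT under placebo was -0.95 for Slc20a2 in place of -1.36.

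**Figure D3:**
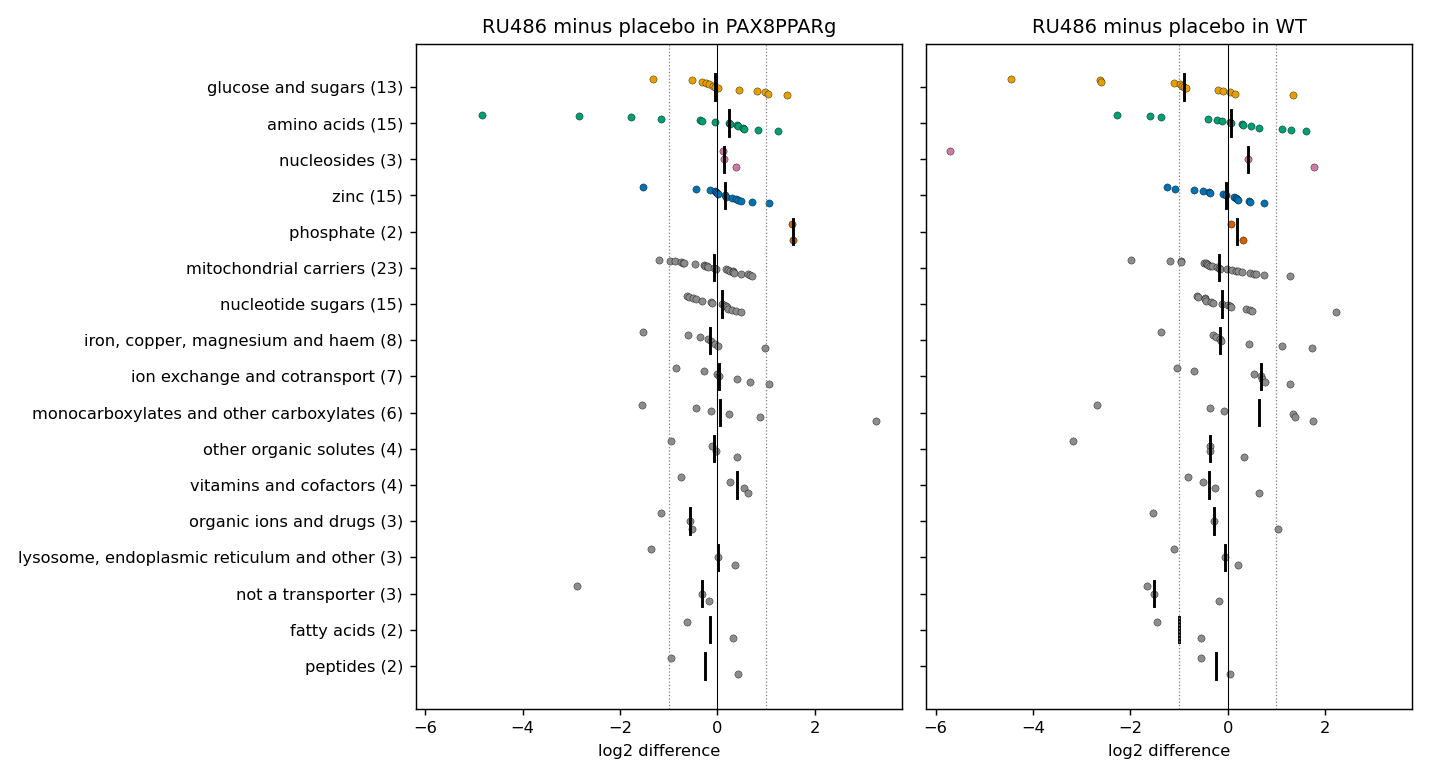
RU486 minus placebo (x axis, log2 difference) for the members of each substrate group with at least 2 members, with PAX8PPARg on the left and WT on the right. Points are genes, black bars are group medians, numbers in brackets are members and dotted lines mark 2-fold. The sugar group has a median of -0.04 in PAX8PPARg and -0.90 in WT, and both phosphate carriers, by their brightest probe sets, lie above 1 in PAX8PPARg alone.

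Carriers of other metals included genes with large differences by genotype. Slc11a1 (NRAMP1), the divalent metal carrier of macrophage phagosomes, read 263 (PAX8PPARg RU486), 301 (PAX8PPARg placebo), 902 (WT RU486) and 262 (WT placebo), so the WT RU486 pool stood above 3 pools that lay close together, and RU486 minus placebo was -0.05 in PAX8PPARg and 1.73 in WT. The 8 macrophage markers had a summed signal of 10879 in the PAX8PPARg RU486, 11807 in the PAX8PPARg placebo, 43405 in the WT RU486 and 11612 in the WT placebo pool, and 7 of the 8 were at least 2-fold higher under RU486 in WT. Their part in the value of Slc11a1 was not tested.

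Slc40a1 (ferroportin), the iron exporter, was lower under RU486 in both genotypes, at 161 under RU486 and 545 under placebo in PAX8PPARg tumours, and 112 under RU486 and 317 under placebo in WT tumours. Its differences were -1.54 in PAX8PPARg and -1.37 in WT, and -1.61 and -1.48 for the second probe set. Slc11a2 (DMT1), the iron importer, differed by 0.98 in PAX8PPARg and -0.13 in WT, but its 3 probe sets ranged from -0.84 to 0.98 in PAX8PPARg. The magnesium carrier Slc41a2 was highest in the WT RU486 pool, at 238 (PAX8PPARg RU486), 258 (PAX8PPARg placebo), 1657 (WT RU486) and 758 (WT placebo). It was lower in PAX8PPARg under both treatments, with differences of -2.78 under RU486 and -1.69 under placebo. The copper carriers Slc31a1 and Slc31a2, the magnesium carrier Slc41a1 and the haem carrier Slc48a1 stayed within 2-fold in all 4 comparisons.

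Carriers of the Slc25 family, most of them mitochondrial, formed the largest group, with 23 members of 33 on the array, and held 3 of the 5 members with the highest mean signal, a rank that also depends on each probe set. Few differed: in PAX8PPARg 0 were higher by 2-fold and 1 lower under RU486 (median -0.07), and in WT 1 was higher and 2 lower (median -0.18). The ADP/ATP carriers Slc25a4 and Slc25a5 and the phosphate carrier Slc25a3 read at least 2858 on every array. Slc25a5 differed by 0.70 in PAX8PPARg and -0.40 in WT, and Slc25a3 by 0.63 in PAX8PPARg and -0.22 in WT. Slc25a4 was higher under RU486 by less than 2-fold in both genotypes, 0.68 in PAX8PPARg and 0.58 in WT.

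Slc25a23, a carrier of ATP-Mg and phosphate, was lower under RU486 in both genotypes, at 158 under RU486 and 422 under placebo in PAX8PPARg tumours, and 57.9 under RU486 and 278 under placebo in WT tumours. Slc25a13 (citrin), the aspartate and glutamate exchanger of the urea cycle and the malate-aspartate shuttle, differed by 0.34 in PAX8PPARg and was lower under RU486 in WT (65.2 under RU486 and 169.7 under placebo). Slc25a37 (mitoferrin-1), which brings iron into mitochondria, differed by 0.32 in PAX8PPARg and was higher under RU486 in WT (426 under RU486 and 165 under placebo). Slc25a20, which carries acylcarnitines for fatty acid oxidation, was lower under RU486 to nearly the same degree in both genotypes but by less than 2-fold, at -0.96 in PAX8PPARg and -0.95 in WT.

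Nucleotide sugar carriers, the Slc35 family that supplies glycosylation in the Golgi and the endoplasmic reticulum, were nearly flat. Of 15 members 14 stayed within 2-fold between RU486 and placebo in both genotypes, with medians of 0.09 in PAX8PPARg and -0.11 in WT. The exception was Slc35a5 in WT (2.24), whose next brightest probe set gave -0.28 and whose 5 probe sets averaged 0.50, so this value rests on 1 probe set. Slc35e4, a member with no established substrate, was lower in PAX8PPARg than in WT under RU486 (202 in PAX8PPARg and 625 in WT) and under placebo (167 in PAX8PPARg and 454 in WT).

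Among ion exchangers and cotransporters, 7 of 32 on the array were members. Slc12a4 (KCC1), a potassium and chloride cotransporter that regulates cell volume, was the only member at least 2-fold higher under RU486 in both genotypes, with 278 under RU486 and 139 under placebo in PAX8PPARg tumours, and 371 under RU486 and 144 under placebo in WT tumours. Slc12a2 (NKCC1), the sodium, potassium and chloride cotransporter of secretory epithelia, differed by -0.85 in PAX8PPARg and -1.04 in WT. Its other probe sets, with means of 921 and 431, gave -1.30 and -1.30 in PAX8PPARg and -1.06 and -0.98 in WT. The bicarbonate carriers Slc4a2 and Slc4a4 and the cotransporters Slc12a7 and Slc12a9 differed by 0.55 to 0.76 in WT, and the sulphate carrier Slc26a2 by -0.68.

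Carriers of lipids, choline and other solutes also differed. Slc27a1 (FATP1), which promotes fatty acid uptake in fat and muscle, read 811 (PAX8PPARg RU486), 1385 (PAX8PPARg placebo), 204 (WT RU486) and 586 (WT placebo). Its RU486 difference was -0.63 in PAX8PPARg and -1.45 in WT, and it was higher in PAX8PPARg than in WT under both treatments. Slc44a3, of the choline transporter-like family, read 488 (PAX8PPARg RU486), 403 (PAX8PPARg placebo), 38.8 (WT RU486) and 483 (WT placebo). The WT RU486 pool was again the one that stood apart, with RU486 differences of 0.40 in PAX8PPARg and -3.18 in WT, while its relatives Slc44a1 and Slc44a2 stayed within 2-fold in all 4 comparisons.

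Slc5a3, which takes up the osmolyte myo-inositol, read 134 (PAX8PPARg RU486), 302 (PAX8PPARg placebo), 754 (WT RU486) and 595 (WT placebo), with its lowest value in the PAX8PPARg RU486 pool. Slc22a23, an organic ion carrier with no established substrate, was lower under RU486 in both genotypes, with differences of -1.15 in PAX8PPARg and -1.53 in WT. Slc22a4, the ergothioneine carrier, differed by -0.52 in PAX8PPARg and 1.04 in WT. Slc43a3, a purine nucleobase carrier, was lower under RU486 in PAX8PPARg, at 147 under RU486 and 443 under placebo, and Slc66a2 was lower in WT, at 158 under RU486 and 356 under placebo. The peptide carriers Slc15a2 and Slc15a4, the vitamin carriers Slc19a1, Slc19a2, Slc23a2 and Slc46a3, the creatine carrier Slc6a8, and Slc10a3, Slc22a5, Slc27a4 and Slc33a1 stayed within 2-fold between RU486 and placebo in both genotypes by their brightest probe sets.

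Other probe sets did not always agree that a member was within 2-fold. Of the 110 members within 2-fold under RU486 in PAX8PPARg, 41 had other probe sets with a mean of at least 100, and in 5 of these (Slc12a2, Slc19a1, Slc25a4, Slc25a5 and Slc6a8) at least 1 such probe set passed 2-fold. In WT it was 3 (Slc15a2, Slc25a20 and Slc2a1) of 36. The widest gap was that of Slc15a2 (PEPT2), a carrier of short peptides, whose second probe set read 357 (PAX8PPARg RU486), 557 (PAX8PPARg placebo), 35.0 (WT RU486) and 518 (WT placebo), against 445 (PAX8PPARg RU486), 964 (PAX8PPARg placebo), 639 (WT RU486) and 942 (WT placebo) for the brightest. Its RU486 difference in WT was thus -3.39 by the second probe set and -0.55 by the brightest. In PAX8PPARg the second probe sets of the folate carrier Slc19a1 and of Slc6a8 gave 1.82 and 1.13, beside 0.63 and 0.80 for the brightest.

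The scaffold genes that share the Slc symbol were also lower under RU486. Slc9a3r2 (NHERF2) read 272 (PAX8PPARg RU486), 2305 (PAX8PPARg placebo), 551 (WT RU486) and 1777 (WT placebo), with differences of -2.87 in PAX8PPARg and -1.66 in WT. Its 5 other probe sets gave -2.02 to -0.95 in PAX8PPARg and -1.64 to -0.45 in WT. Slc9a3r1 (NHERF1) differed by -0.32 in PAX8PPARg and was lower under RU486 in WT (-1.51).

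The RU486 differences of the genotypes, which share no array, were then set side by side. At least 2-fold lower in both were Slc1a3, Slc9a3r2, Slc40a1, Slc39a8, Slc25a23 and Slc22a23, and higher in both was Slc12a4. These 7 are 5.38% of the members, where 2.19% of all genes were at least 2-fold apart in the same direction in both genotypes, and the 1 member in opposite directions is 0.769%, where 3.25% of all genes were. A further 12 members (9.23%) passed 2-fold in PAX8PPARg and not in WT, where 7.54% of all genes did. In WT and not in PAX8PPARg it was 27 (20.8%), where 11.5% of all genes did, and 83 (63.8%) passed in neither, where 75.5% did. The largest values of the difference between the RU486 effects, PAX8PPARg minus WT, were those of Slc28a3 (6.08), Slc5a1 (4.27), Slc5a9 (3.59), Slc44a3 (3.58), Slc2a9 (3.40) and Slc16a3 (3.33), and the most negative were those of Slc16a7 (-3.29), Slc1a3 (-3.24), Slc7a2 (-3.14), Slc35a5 (-2.37), Slc38a1 (-1.79) and Slc11a1 (-1.78). The values of Slc5a9 and Slc1a3 rest on a signal within the background range and are not exact. In all, 24 members had a difference of at least 1 and 18 of at most -1, where 13.4% and 12.2% of all genes did. At least 3 or at most -3 were 6 and 3 members, where 3.13% and 1.41% of all genes were.

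**Figure D4:**
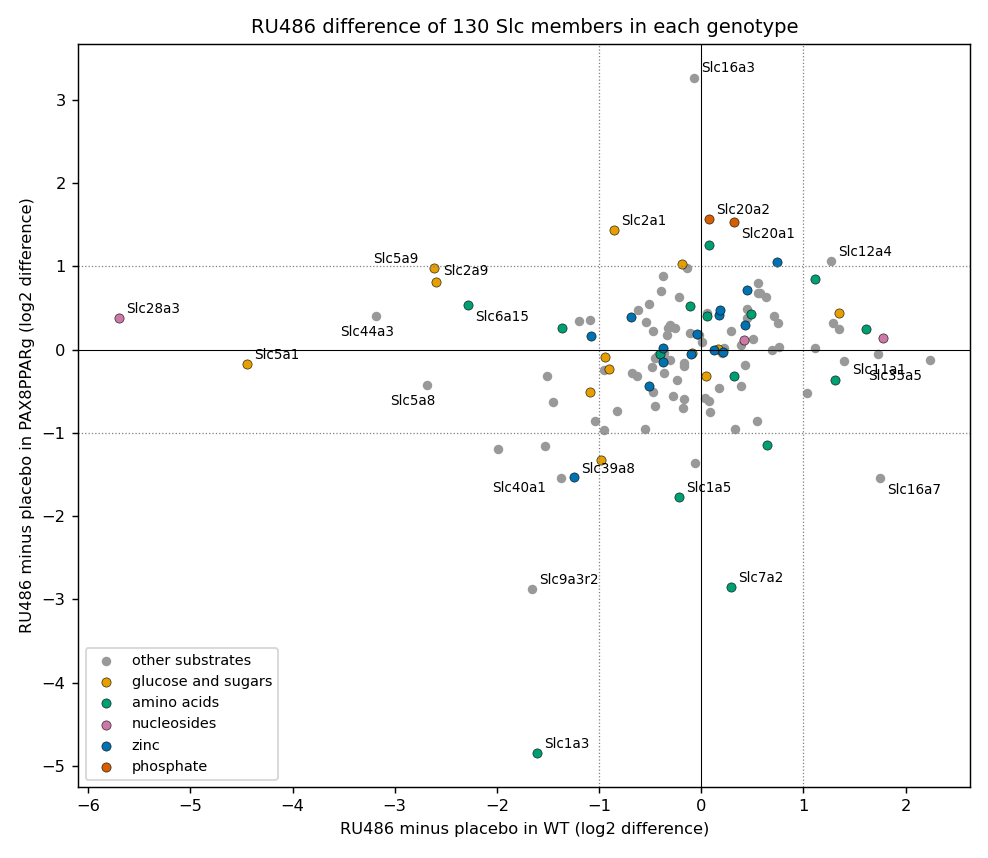
RU486 minus placebo of the 130 members in WT (x axis) and in PAX8PPARg (y axis), both as log2 differences, coloured by substrate, with dotted lines at 2-fold. Slc28a3 and Slc5a1 lie far to the left near 0 on the y axis, Slc16a3 and the phosphate carriers near 0 on the x axis and above 1, and 1 gene, Slc16a7, lies beyond 2-fold to the lower right.

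PAX8PPARg against WT under placebo gave 7 members higher by 2-fold or more and 13 lower, where 3.64% and 5.25% of all genes were. At 8-fold there were 0 higher and 0 lower, where 0.337% and 0.785% of all genes were. Without centring the 2-fold counts were 8 higher and 9 lower. The median of all genes was -0.15 and that of the members -0.24, and without centring 0.04 and -0.05. The 7 higher members were Slc2a4 (2.20, and 1.24 for its second probe set), Slc1a5 (1.73), Slc1a3 (1.73), Slc7a2 (1.59), Slc16a7 (1.46), Slc35a5 (1.15, and -0.22 for its next probe set) and Slc27a1 (1.03). They carry glucose, amino acids, monocarboxylates, nucleotide sugars and fatty acids. Below them came Slc25a33, a mitochondrial pyrimidine nucleotide carrier (0.83). The means of Slc2a4 and Slc1a3 leaned on the PAX8PPARg placebo array, so the rule itself favoured their differences here. The largest negative differences were those of Slc16a3 (-2.59), Slc28a3 (-2.41), Slc5a1 (-2.15), Slc39a14 (-1.79), Slc41a2 (-1.69), Slc35e4 (-1.55), Slc20a2 (-1.36) and Slc2a1 (-1.34).

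PAX8PPARg against WT under RU486 gave 14 members higher by 2-fold or more and 18 lower, where 9.49% and 11.2% of all genes were. At 8-fold there were 4 higher and 0 lower, where 2.18% and 0.511% of all genes were. Of the 4, Slc28a3 and Slc44a3 had measured signals in both pools, and Slc5a9 and Slc6a15 rest on a WT RU486 signal within the background range. Those with the largest positive differences were Slc28a3 (3.67), Slc44a3 (3.14), Slc5a8 (2.78), Slc2a9 (2.76), Slc5a1 (2.12) and Slc2a4 (1.86), together with Slc5a9 and Slc6a15, which were at least 6.36-fold and at least 6.07-fold higher. Each of these 8 had its lowest signal of the 4 in the WT RU486 pool. Those with the largest negative differences were Slc41a2 (-2.78), Slc5a3 (-2.42), Slc16a7 (-1.83), Slc11a1 (-1.78), Slc35e4 (-1.61), Slc7a2 (-1.55), Slc1a3 (-1.51) and Slc25a37 (-1.49). For Slc1a3 the signal in the PAX8PPARg RU486 pool was within the background range, and the bound is at least 1.13-fold lower. The genotype comparisons share arrays with the RU486 comparisons and are not independent of them.

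Markers of cell types differed between the same pools. Luminal epithelial markers, which a mammary tumour should hold, were above the background range in every pool except for Cldn4 in WT RU486, and their summed signal was 37945 in the PAX8PPARg RU486, 33999.7 in the PAX8PPARg placebo, 6282 in the WT RU486 and 37713 in the WT placebo pool. All 10 were at least 2-fold lower under RU486 in WT. Milk protein genes summed to 22689, 20776, 4846 and 76807 in the same order, and all 7 were at least 2-fold lower under RU486 in WT and in PAX8PPARg under placebo. Like the milk protein sum, 17 members were highest in WT placebo and lowest in WT RU486 after centring. They are 13.1% of the members, close to the 11.9% of all genes with that order. Slc28a3, Slc5a1, Slc44a3, Slc7a5, Slc30a6, Slc12a2 and Slc9a3r1 were among them, some by a narrow margin. Slc44a3 and Slc7a5 read 488 and 642 in PAX8PPARg RU486, and 483 and 642 in WT placebo. PAX8PPARg minus WT under placebo was -0.04 for Slc9a3r1 and -0.07 for Slc12a2. The other probe sets of Slc12a2 gave 0.38 and 0.00.

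Squamous markers summed to 12009.9 in the PAX8PPARg RU486, 1291 in the PAX8PPARg placebo, 324 in the WT RU486 and 7287 in the WT placebo pool, and 6 of 8 were within the background range in the WT RU486 and 2 in the PAX8PPARg placebo pool. The PAX8PPARg RU486 pool was the highest for 18 members (13.8%), Slc2a1, Slc5a9 and Slc2a9 among them, and for 23.2% of all genes. T cell and B cell markers summed to 2038 and 3429 in the PAX8PPARg placebo pool and to at most 402 and 374 in the others, and endothelial markers to 3057 there and at most 1583 elsewhere. In the PAX8PPARg RU486 pool 4 of 5 measured B cell markers and 2 of 5 measured T cell markers were within the background range. The PAX8PPARg placebo pool, in which these lists and the adipocyte list were highest, was also the highest for 24 members (18.5%) and for 16.1% of all genes. Slc1a3, Slc7a2, Slc1a5, Slc38a1, Slc2a4 and Slc43a3 were among those members. Basal and myoepithelial markers were lowest in the WT RU486 pool, at 3068 against at least 15238 elsewhere. Fibroblast markers varied less, from 28201 to 43201. Skeletal muscle markers were at most 868 in the PAX8PPARg pools and at least 2822 in the WT pools, and red cell markers at most 163, with Hba-a1 within the background range on every array. The part of these lists in the values of the solute carriers was not tested.

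**Figure D5:**
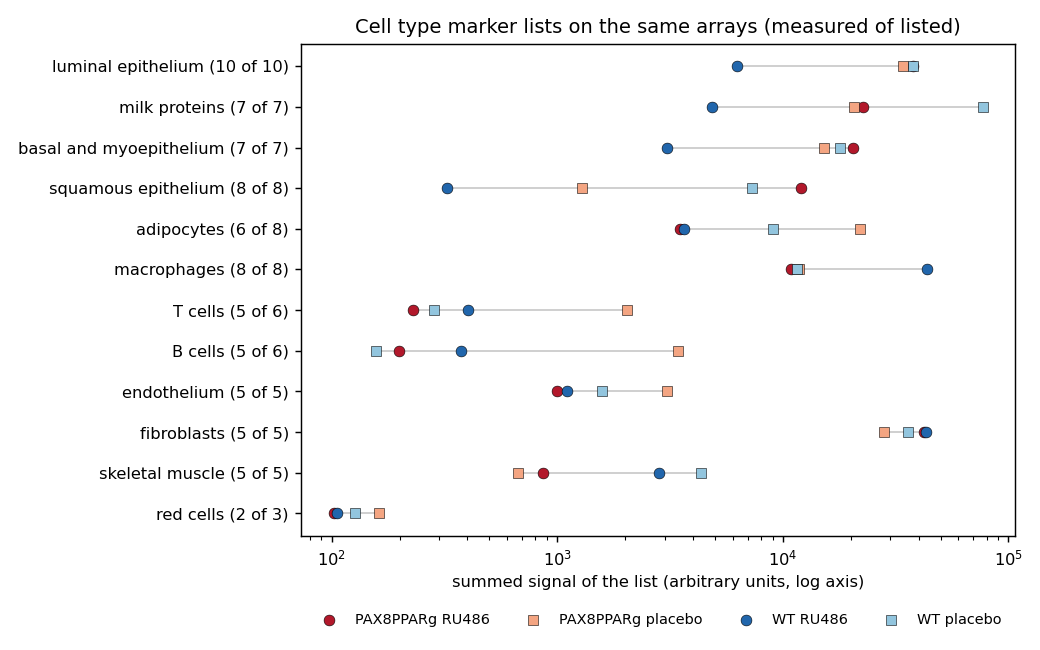
Summed signal of each cell type marker list (x axis, log scale) on the 4 arrays, with the number of markers measured of those listed. The WT RU486 pool is lowest for the epithelial lists and highest for macrophages, and the PAX8PPARg placebo pool is highest for adipocytes, T cells, B cells and endothelium.

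Transporters outside the Slc symbols were counted by the same rule. Of 22 ABC transporters with a mean of at least 100, 2 were higher and 5 lower by 2-fold or more under RU486 in PAX8PPARg, and 8 were higher and 2 lower in WT. Over all genes 6.1% were higher and 6.89% lower in PAX8PPARg, and 6.87% higher and 10.1% lower in WT. Abcg2, a drug and riboflavin exporter of the lactating mammary gland, was lower in both genotypes, with signals of 165 under RU486 and 508 under placebo in PAX8PPARg tumours, and 240.4 under RU486 and 1255 under placebo in WT tumours. Abca1 and Abcg1, the cholesterol exporters of macrophages, were higher under RU486 in WT (1.91 and 1.59). Of 4 aquaporins, the glycerol channel Aqp7 of adipocytes read 359.9 in the PAX8PPARg placebo and 36 in the WT placebo pool. For RU486 minus placebo Aqp3 differed by 4.85 in PAX8PPARg and -3.39 in WT. Aqp1 differed by -1.51 and 2.07 in the same order, and Aqp5 by -0.50 and 0.09. Of 3 Slco members the prostaglandin carrier Slco2a1 differed by 0.28 in PAX8PPARg and was higher under RU486 in WT (1.82). Atp1b1, a subunit of the sodium pump that drives the sodium-coupled carriers, read 3087 (PAX8PPARg RU486), 2950.4 (PAX8PPARg placebo), 522 (WT RU486) and 1439 (WT placebo), again lowest in the WT RU486 pool, while Atp1b3 differed by at most 0.39 between RU486 and placebo.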

How the data were processed

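The authors deposited 1 intensity per probe set and array, on a linear scale. Which algorithm made them is not stated in the sources used here, and the 2% trimmed mean of 500 on each array shows a scaling before deposit. There were no detection calls. RNA was from tumours of 5 mice per group, pooled, per the labels' protocols, and each of the 4 groups had 1 array, so no test was run. Of 22690 probe sets 64 were controls, and of the other 22626 20380 had 1 gene symbol in the platform annotation, 691 several and 1555 none. For each gene the probe set with the highest mean was used. Values were taken as log2(signal + 16), each array centred on its median, and differences counted at 2-fold and 8-fold. All 130 members matched RefSeq by gene ID under the same symbol.

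Substrate groups and marker lists came from general knowledge. Members with their values were named by rule: in the 5 main substrate groups those at least 2-fold apart under RU486, over all members the 12 highest and 12 lowest RU486 differences in each genotype, 8 and 8 for genotype and 6 and 6 for the difference of effects, those past 2-fold in both genotypes, and the 5 brightest. Other members named, the other transporter genes and the genes below the limit were picked after their values were seen. The members and lists were chosen with earlier results of these data known. Alternatives were no centring, quantile normalization, pseudocounts of 1 and 64, averaged probe sets, and a minimum mean of 200 or none. The counting was tested on simulated data. Python 3.11.15, numpy 2.4.6 and pandas 2.3.3 were used.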

Additional observations from a re-analysis of the deposited data

Results flagged for a closer look

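Slc16a7, the monocarboxylate carrier MCT2, stands out because RU486 minus placebo pointed in opposite directions in the genotypes and passed 2-fold in each, at -1.54 log2 in PAX8PPARg and 1.75 log2 in WT. The difference between the genotypes was not tested, since each group is 1 pool. The gene has 1 probe set on the array.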

How the results depend on the processing

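No paired analysis was possible because each group has 1 array and the labels give no replicate numbers. Of 136 differences of at least 2-fold among the 54 named members, all kept their sign without centring, under quantile normalization and with pseudocounts of 1 and 64, and 124, 131, 136 and 114 stayed at least 2-fold. Of the 62 from genes with several probe sets, 62 kept their sign with averaged probe sets and 45 stayed at least 2-fold. The average holds the counted probe set, so keeping the sign is partly built in. By the next brightest probe set alone, at a mean of at least 100, 10 of 11 members kept their sign for RU486 in WT. For RU486 in PAX8PPARg it was 6 of 6, and for genotype 8 of 9 under placebo and 9 of 9 under RU486. Those still 2-fold were 8, 5, 6 and 5 in that order. For the difference of effects 15 of 15 kept their sign and 9 stayed 2-fold. RU486 minus placebo in PAX8PPARg had 8 members higher; this became 5 without centring, 4 with a pseudocount of 64, 5 of 98 members with a minimum mean of 200, and 31 of 262 with none. With no minimum, PAX8PPARg minus WT had 35 higher under RU486, 12 higher and 22 lower under placebo, RU486 minus placebo in WT had 26 higher and 34 lower, and the difference of the RU486 effects 50 higher and 30 lower. With the minimum of 200, 7 members were higher under RU486 in WT, and PAX8PPARg minus WT under RU486 had 9 higher and 11 lower. The pseudocount of 64 also gave 11 lower for that comparison. The other counts stayed within 1.5 times. Changing the minimum changes which genes are counted. Low signals limit the size of 3 members' differences.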

Other observations

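Of the 132 Slc genes below the mean signal of 100, 27 read at least 100 on at least 1 array, and 42 were within the background range on all 4. Of the 27, 7 were highest in the PAX8PPARg RU486, 7 in the PAX8PPARg placebo, 10 in the WT RU486 and 3 in the WT placebo pool. The genes named here were picked after their values were seen. Among the 3 highest in WT placebo were carriers known from the lactating gland. Slc34a2, the sodium-coupled phosphate carrier of secretory epithelia, read 47.5 (PAX8PPARg RU486), 21.3 (PAX8PPARg placebo), 7.4 (WT RU486) and 119 (WT placebo), the WT RU486 value within the background range. Slc30a2 (ZnT2), a zinc exporter needed for milk zinc, read 67.7 (PAX8PPARg RU486), 16.6 (PAX8PPARg placebo), 18.4 (WT RU486) and 144 (WT placebo), with the WT RU486 value again within that range.

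Other dim carriers had other orders. Slc6a14, a carrier of neutral and cationic amino acids, read 149 (PAX8PPARg RU486), 51.7 (PAX8PPARg placebo), 9.9 (WT RU486) and 117 (WT placebo), the WT RU486 value within the background range. Slc14a1, the urea channel UT-B, read 179 (PAX8PPARg RU486), 26.2 (PAX8PPARg placebo), 28.6 (WT RU486) and 33.8 (WT placebo). Slc6a4, the serotonin transporter, read 7.3 (PAX8PPARg RU486), 9.9 (PAX8PPARg placebo), 208 (WT RU486) and 31.2 (WT placebo), so that the WT RU486 pool was the only one above 100. Its PAX8PPARg RU486 value was within the background range. Each value is from 1 array and has no error.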
